A study of Mus musculus with 13 samples.

Results

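H3K27me3, the trimethylation of lysine 27 on histone H3, was measured against total H3 in WT mouse embryonic stem cells (ESCs), to describe which regions and genes carried the mark most above the nucleosome background. The members are the 7 WT ChIP-seq libraries of a series of 13, taken by their labelled genotype and antibody: 5 libraries with an H3K27me3 antibody (Abcam ab6002) and 2 with a total H3 antibody (Proteintech). Both groups came from a male ESC line of a CAST and B6 cross with a cassette at Rosa26 for recombinase-mediated cassette exchange (RMCE). Both had 3 days of doxycycline and fixation in 0.6% formaldehyde, so these WT cells are not untreated cells. The labels do not say which transcript doxycycline induces or whether it is carried at the cassette. They also do not say that the libraries came from separate cultures, so each p-value is set against a spread that may be technical. The library names of H3K27me3 replicates 1, 4 and 5 share a stem and those of replicates 2 and 3 differ, and whether these are separate clones is not stated. The deposited tables give raw read counts over 57909 regions called for H3K27me3 in either genotype of the series, and 57905 of them, without 4 on the mitochondrial chromosome, were used. The 5 H3K27me3 libraries held between 1818465 and 3134226 reads in these regions, against 636596 and 699577 reads in the total H3 libraries.

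H3K27me3 is laid down by Polycomb repressive complex 2 (PRC2), whose catalytic subunit is Ezh2 or Ezh1, and it is read by subunits of Polycomb repressive complex 1. In ESCs the mark is known for covering CpG-rich promoters of developmental regulators that are silent or barely transcribed in these cells, many of which also carry the active mark H3K4me3. Total H3 is bound wherever there are nucleosomes, so dividing by it takes out differences in nucleosome density, copy number and mappability that both libraries share.

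Promoter sequences of 5 genes are shown because the mark is known to follow CpG density. Each is the 200 bases before the RefSeq gene start (assembly GRCm38.p6, the same build as mm10), written 5′ to 3′ on the strand of the gene, with every CpG in capitals. The starts of the first 3 genes lay in H3K27me3 regions described below, and those of the last 2 lay in no region. Gapdh is poor in CpG for a housekeeping gene. In windows of 300 bases, 21 housekeeping promoters had a median of 24 CpG, and none had its start in a region.
Nkx6-1 (chr5:101664712-101664911, minus strand, 28 CpG): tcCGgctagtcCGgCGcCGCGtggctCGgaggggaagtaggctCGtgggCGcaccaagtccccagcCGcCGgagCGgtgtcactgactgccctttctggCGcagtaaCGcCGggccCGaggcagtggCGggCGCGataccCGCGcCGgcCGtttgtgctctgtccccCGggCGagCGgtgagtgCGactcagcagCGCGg
Skor1 (chr9:63146981-63147180, minus strand, 10 CpG): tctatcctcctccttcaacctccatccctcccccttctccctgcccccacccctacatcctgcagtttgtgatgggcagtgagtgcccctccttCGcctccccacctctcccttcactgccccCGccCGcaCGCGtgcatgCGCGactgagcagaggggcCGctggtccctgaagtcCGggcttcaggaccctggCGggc
Hoxd13 (chr2:74668025-74668224, plus strand, 26 CpG): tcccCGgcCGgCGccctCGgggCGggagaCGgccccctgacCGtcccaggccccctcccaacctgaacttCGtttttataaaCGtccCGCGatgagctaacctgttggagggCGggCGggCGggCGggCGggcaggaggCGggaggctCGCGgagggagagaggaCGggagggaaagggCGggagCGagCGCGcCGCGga
Pou5f1 (chr17:35505832-35506031, plus strand, 6 CpG): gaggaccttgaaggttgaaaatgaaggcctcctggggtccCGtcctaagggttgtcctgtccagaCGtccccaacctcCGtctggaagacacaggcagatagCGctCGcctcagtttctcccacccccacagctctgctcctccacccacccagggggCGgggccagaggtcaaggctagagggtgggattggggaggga
Gapdh (chr6:125165774-125165973, minus strand, 7 CpG): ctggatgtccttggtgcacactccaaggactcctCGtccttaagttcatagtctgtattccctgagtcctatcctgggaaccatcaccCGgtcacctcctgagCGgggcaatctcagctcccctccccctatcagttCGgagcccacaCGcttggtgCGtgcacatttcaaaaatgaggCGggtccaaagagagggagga

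The regions with the highest ratio of H3K27me3 to total H3 included those at Ppp1r9b, Trank1, Shh, Lyl1 and Nkx6-1 and, on chromosome X, Pcdh11x and Bcor. Of 44550 regions with enough counts to test, 4087 were called higher in H3K27me3 than in total H3 and 600 lower (edgeR quasi-likelihood test, adjusted p under 0.05), which is 9.17% and 1.35% of the regions tested. The other 13355 regions, all under 1 kb, had too few counts. The median log2 ratio of all regions tested was −0.05, because TMM scaling (the trimmed mean of M-values, which scales libraries on their middle features) sets the middle region to about 0. All regions had been called for the mark, so higher means above the middle region, and a region that was not called higher is not thereby unmarked. That zero depended on the scaling. With the total reads over all regions as library sizes, the median of all regions was −0.60 and 2189 regions were higher against 7673 lower. With the reads in regions that the authors did not call in WT as library sizes, the median was 0.56 and 10785 regions were higher against 42 lower. Of all calls, 87.2% were thus higher under TMM, 22.2% under total reads and 99.6% under the third scaling, and ratios below are read against the median of all regions.

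The region with the highest ratio among those of at least 1000 bp lay at the start of Ppp1r9b, a scaffold of protein phosphatase 1 in dendritic spines (chr11:94991006-94993096). Levels are given as CPM per kb, read counts scaled to a common library size and divided by region length. The H3K27me3 level of Ppp1r9b was 76.0, 64.9, 58.0, 57.3 and 61.5 CPM per kb in replicates 1 to 5, against 8.34 and 10.8 CPM per kb in the total H3 libraries. All 5 H3K27me3 libraries lay above both total H3 libraries, which the rule for choosing the region required. The log2 ratio was 2.72 (SE 0.21, edgeR adjusted p of 3.15e-23), and the total H3 level rested on only 14 and 20 reads. Shh, the Hedgehog ligand that patterns the neural tube and limb, lay in a region of 14300 bp (chr5:28455275-28469574). It had 57.5, 63.8, 55.2, 58.8 and 54.6 CPM per kb in H3K27me3, against 9.06 and 10.4 CPM per kb in total H3, a log2 ratio of 2.57 (SE 0.10, edgeR adjusted p of 2.34e-49). Nkx6-1, a homeobox factor of the ventral neural tube and the pancreatic beta cell, had a lower level of the mark and a lower H3 level (chr5:101655370-101669575). Its H3K27me3 level was 47.3, 46.7, 42.9, 45.2 and 43.1 CPM per kb, against 7.63 and 7.68 CPM per kb in total H3. The log2 ratio was 2.56 (SE 0.11, edgeR adjusted p of 3.45e-46). Lyl1, a bHLH factor of blood cells, had the highest level of the mark among the 15 highest regions, in a region that also overlaps the gene body of Nfix (chr8:84701356-84709319). It reached 88.5, 91.8, 94.7, 93.8 and 88.2 CPM per kb in H3K27me3, and its 16.3 and 14.8 CPM per kb in total H3 were also the highest of the 15. Its log2 ratio of 2.56 (SE 0.10) was the same as that of Nkx6-1 within their errors.

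The other autosomal regions of the 15 had log2 ratios between 2.51 and 2.65. Skor1, a corepressor of dorsal spinal neurons whose promoter is shown above with 10 CpG, lay in 20244 bp (chr9:63133527-63153770). Its H3K27me3 level was between 62.4 and 66.4 CPM per kb with a median of 65.2, against 11.3 and 10.9 CPM per kb in total H3, a log2 ratio of 2.54 (SE 0.08). The LIM homeobox gene Lhx5 (2.54, SE 0.09), the zinc finger gene Zfp503 (2.54, SE 0.10), the somite homeobox gene Uncx (2.52, SE 0.08) and the region of both Hmx2 and Hmx3 (2.51, SE 0.09), homeobox genes of the inner ear, lay next to it. The brain receptor gene Adgrb1 had 2.52 (SE 0.13), Npas2, a paralog of Clock, 2.53 (SE 0.18), and Trank1 2.65 (SE 0.16). In each of these regions all 5 H3K27me3 libraries lay above both total H3 libraries, which the rule for choosing them required.

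Of the 15 highest regions, 3 were on chromosome X, and they stood apart by level. Pcdh11x, a protocadherin gene (chrX:120288062-120293057), had 15.5, 15.7, 13.6, 15.6 and 14.5 CPM per kb in H3K27me3, against 2.24 and 2.48 CPM per kb in total H3. Its total H3 level rested on only 9 and 11 reads. Bcor, which encodes a subunit of a variant Polycomb repressive complex 1, had a region at its start (chrX:12074533-12095429) and another in its gene body (chrX:12134402-12139021). The region at the start had 19.7, 18.6, 20.7, 22.6 and 19.1 CPM per kb in H3K27me3, against 3.69 and 3.34 CPM per kb in total H3. In all 3 regions the H3K27me3 level was below that of each of the 12 autosomal regions, and so was the total H3 level. Their high ratios (2.66 for Pcdh11x and 2.52 for both Bcor regions) thus went with low total H3, and the part of total H3 in them was not tested.

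**Figure D1:**
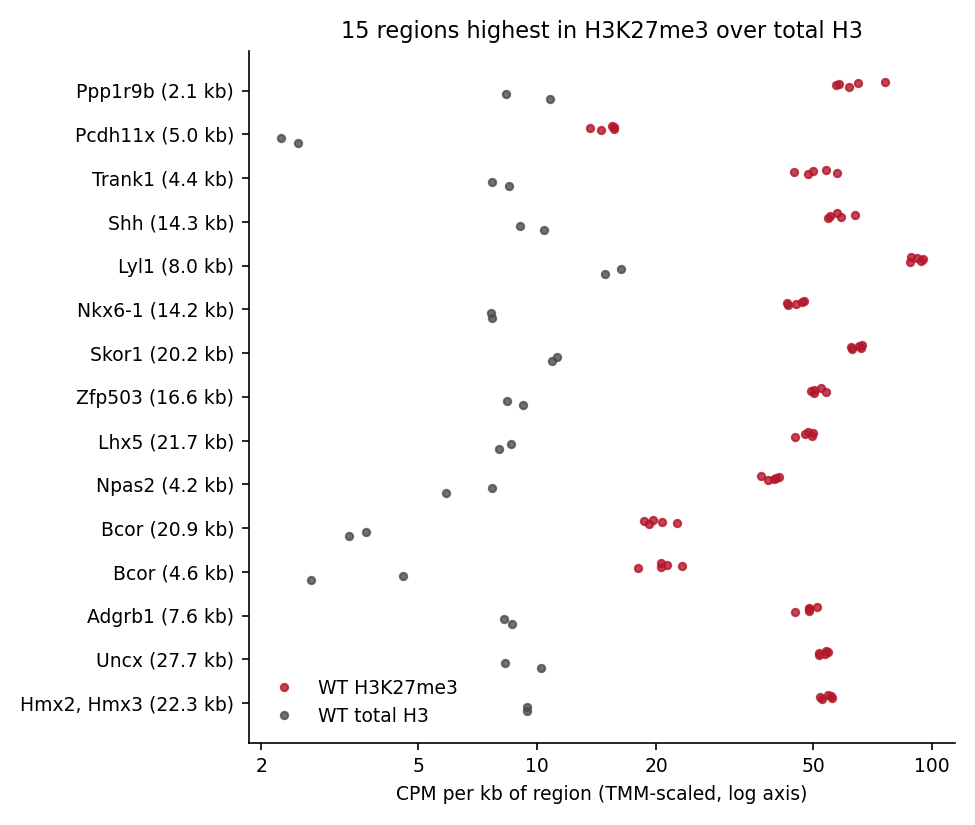
Read density of the 15 regions with the highest ratio, in TMM-scaled CPM per kb of region (log axis), for 5 WT H3K27me3 libraries (red) and 2 WT total H3 libraries (grey); each point is 1 library. The autosomal regions have H3K27me3 levels between 36.9 and 94.7, while the regions of Pcdh11x and Bcor on chromosome X are low in both and lie between 13.6 and 23.3 in H3K27me3.

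The longest regions were the Hox clusters, the arrayed homeobox genes that set position along the body axis, and each cluster lay in 1 to 3 regions. The HoxA region spanned 133062 bp (chr6:52146181-52279242) and held the starts of all 11 HoxA genes. It had 49.9, 51.6, 50.3, 49.1 and 49.4 CPM per kb in H3K27me3, against 9.57 and 9.62 CPM per kb in total H3, a log2 ratio of 2.38 (SE 0.06, edgeR adjusted p of 2.80e-72). The HoxB region of 128455 bp (chr11:96249272-96377726) averaged 47.1 ± 2.14 CPM per kb in H3K27me3 (SD, n = 5) and 9.47 ± 0.17 CPM per kb in total H3 (SD, n = 2). Hoxb13, which lies apart from the rest of its cluster, had a region of its own, with 34.0 ± 2.20 CPM per kb in H3K27me3 (SD, n = 5) and 9.98 ± 0.27 CPM per kb in total H3 (SD, n = 2). Its log2 ratio of 1.77 (SE 0.08) was below the 2.32 (SE 0.06) of the main HoxB region. The HoxC region of 124112 bp (chr15:102921117-103045228) had a log2 ratio of 2.22 (SE 0.06) and held 8 of 9 HoxC starts, all but Hoxc13.

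The HoxD cluster was split into 3 regions with unequal ratios. The region from Evx2 over Hoxd13, whose promoter is shown above, to Hoxd8 was 69370 bp long (chr2:74646526-74715895). It had 52.7, 52.7, 50.2, 52.7 and 52.4 CPM per kb in H3K27me3, against 9.05 and 9.73 CPM per kb in total H3, a log2 ratio of 2.47 (SE 0.06). The region of Hoxd3 and Hoxd4 (38772 bp) had 30.7 ± 1.29 CPM per kb in H3K27me3 (SD, n = 5) and 9.48 ± 0.51 CPM per kb in total H3 (SD, n = 2). Hoxd1 at the end of the cluster had 26.9, 21.7, 22.2, 25.4 and 23.2 CPM per kb in H3K27me3, against 8.93 and 9.55 CPM per kb in total H3. The level of the mark in all 5 libraries was thus highest at the 5′ genes of the cluster (Hoxd13 to Hoxd8), and total H3 differed little along it. The log2 ratio was 1.69 (SE 0.08) at Hoxd3 and Hoxd4 and 1.37 (SE 0.15) at Hoxd1. A gene start can fall in 2 of these regions where it has several transcripts, as for Hoxd3.

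The other regions among the 10 longest held the patterning factor genes Zic1 and Zic4, Nr2f1 and Pax3, and part of the gamma protocadherin cluster, an array of variable first exons for neuronal cell adhesion proteins. Zic1 and Zic4 shared 43933 bp (chr9:91348572-91392504), with 29.3 ± 0.26 CPM per kb in H3K27me3 (SD, n = 5) and 7.88 ± 0.44 CPM per kb in total H3 (SD, n = 2), a log2 ratio of 1.89 (SE 0.08). The protocadherin region (chr18:37725717-37765534) had a log2 ratio of 2.04 (SE 0.07), and that of Pax3 (36718 bp) had 1.97 (SE 0.08). Nr2f1, an orphan nuclear receptor of the forebrain, had the lowest ratio of the 10. It had 22.1, 22.5, 22.4, 21.5 and 22.1 CPM per kb in H3K27me3, against 8.93 and 7.68 CPM per kb in total H3, a log2 ratio of 1.41 (SE 0.08).

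The mark rose above total H3 with the length of the region. The 37832 regions under 1 kb had 9.27 ± 0.26 CPM per kb in H3K27me3 (SD, n = 5) and 10.9 ± 0.05 CPM per kb in total H3 (SD, n = 2), and the median log2 ratio of the 24477 tested was −0.23. The 17584 regions of 1 to 5 kb had 12.1 ± 0.27 CPM per kb in H3K27me3 and 9.99 ± 0.04 CPM per kb in total H3, with a median of 0.07. In the 1955 regions of 5 to 10 kb these levels were 20.9 ± 0.93 CPM per kb in H3K27me3 and 10.0 ± 0.10 CPM per kb in total H3, with a median of 0.99. The 534 regions of 10 kb or more had 30.8 ± 0.76 CPM per kb in H3K27me3 and 9.57 ± 0.01 CPM per kb in total H3, with a median of 1.58. Total H3 was therefore nearly level across the classes while the mark was not. Regions of 10 kb or more held 23.6% ± 0.24 of the H3K27me3 reads in regions (SD, n = 5), against 10.8% ± 0.04 of the total H3 reads (SD, n = 2). Regions under 1 kb held 15.9% ± 0.74 of the H3K27me3 reads, against 27.4% ± 0.01 of the total H3 reads. In all 4 classes the shares of the 2 antibodies did not overlap between libraries (two-sided exact permutation test over 21 groupings, adjusted p of 0.0476, the smallest it can give). The lengths come from the authors' calling of the mark, and the labels do not say whether these libraries entered it, so the relation between length and level cannot be told apart from the calling.

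The calls went the same way. Of the regions tested, 90 of 24477 under 1 kb were called higher and 407 lower, while 516 of 534 of 10 kb or more were called higher. Longer regions hold more counts, which gives the test more power. In regions with a mean count of at least 20, the median coefficient of variation between H3K27me3 libraries was 21.6% under 1 kb and 5.94% at 10 kb or more. All regions of 5 kb or more were in the authors' list of regions shared by both genotypes. Within that list alone, the median log2 ratio was −0.02 under 1 kb, 0.11 at 1 to 5 kb, 0.99 at 5 to 10 kb and 1.58 at 10 kb or more. Regions that the authors called in WT alone had a median of −0.03, with 18 of 6958 called higher and 1 lower. Regions that they did not call in WT had −0.65, with 2 of 10024 called higher and 530 lower, an order that the calling itself in part fixes.

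**Figure D2:**
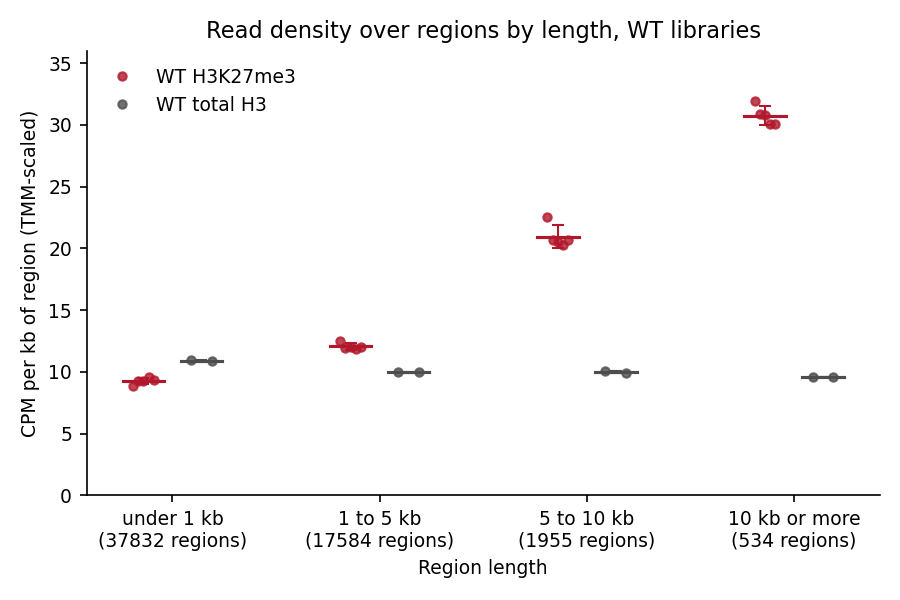
Read density in TMM-scaled CPM per kb over all regions of a length class, for 5 WT H3K27me3 libraries (red) and 2 WT total H3 libraries (grey); points are libraries, bars their mean and SD. H3K27me3 goes from 9.27 ± 0.26 in regions under 1 kb to 30.8 ± 0.76 in regions of 10 kb or more, while total H3 stays between 9.57 and 10.9.

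**Figure D3:**
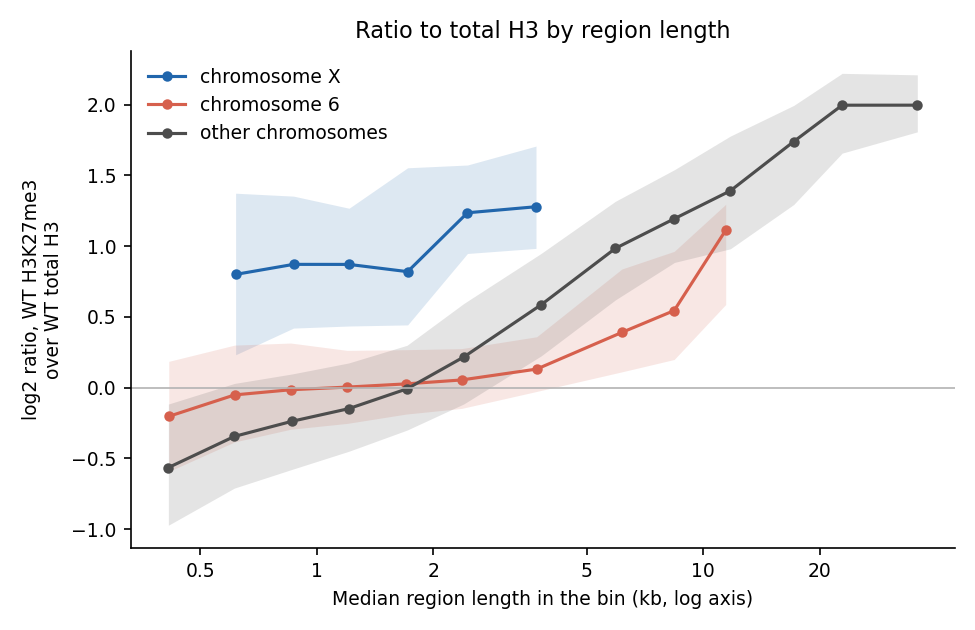
Median log2 ratio of WT H3K27me3 over WT total H3 (lines) with its quartiles (shading) against region length (kb, log axis), for chromosome X, chromosome 6 and all other chromosomes; bins have at least 20 tested regions. On the other chromosomes the median goes from −0.57 at 0.25 to 0.5 kb to 2.00 at 20 to 30 kb, and on chromosome 6 it stays between −0.20 and 0.13 up to 5 kb.

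Regions with a gene start were called higher more often than regions without one. A region was said to hold a gene start if the 5′ end of a gene in the deposited promoter table lay in it, and 5773 regions did. Of those tested, 2895 of 5608 with a start were called higher (51.6%), against 1192 of 38942 without one (3.06%), beside 9.17% of all regions. Regions with a start took 53.0% ± 0.96 of the H3K27me3 reads (SD, n = 5), against 33.6% ± 0.0025 of the total H3 reads (SD, n = 2; two-sided exact permutation p of 0.0476, the smallest of 21 groupings). Regions with a start are longer, with a median length of 3597 bp against 625 bp. Within the class of 1 to 5 kb the median log2 ratio was 0.49 with a start and 0.01 without, and within 10 kb or more it was 1.66 with a start and 0.82 without. Under 1 kb both medians lay at −0.21 and −0.23. The difference with a start was thus seen in the longer classes. In all, 4416 of 21280 protein-coding genes (20.8%) had a start in a region and 2726 (12.8%) in one called higher.

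The promoters in regions were richer in CpG. In 32619 RefSeq promoters of 300 bases (250 before the start to 50 after it), the median number of CpG was 19 where the start lay in a region called higher, 9 where it lay in another region and 6 where it lay in none. Of promoters with at least 10 CpG, 16.3% had a start in a region called higher, against 3.63% of promoters with fewer. CpG number alone did not set the groups apart: the 21 housekeeping promoters in the RefSeq table had a median of 24 CpG and none had its start in a region, while the 24 Hox promoters had 14.5.

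Most listed genes of developmental regulator families lay in regions of high ratio. The lists were chosen with earlier results of these data known and need not hold whole families. In a list of LIM, NK and some other homeobox genes, 48 of 49 had a start in a region. All 47 of these regions were called higher, with a median log2 ratio of 1.97. Beside these, 20.8% of protein-coding genes had a start in a region and 51.6% of tested regions with a start were called higher. Nkx6-1 (2.56), Lhx5 (2.54) and Evx2 (2.47) were the highest of this list, and Nkx6-3 (0.87, SE 0.16) was the lowest. Evx2 is neither a LIM nor an NK gene, and its value is that of the HoxD region from Evx2 to Hoxd8 described above. All 41 genes of the Pax, paired and other homeobox list had a start in a region, and all 41 regions were called higher, also with a median of 1.97. Onecut3, a factor of neurons and endoderm, had 53.0 ± 0.95 CPM per kb in H3K27me3 (SD, n = 5) and 9.46 ± 0.99 CPM per kb in total H3 (SD, n = 2), a log2 ratio of 2.48. Pax4, a factor of the endocrine pancreas, had 14.3 ± 1.71 CPM per kb in H3K27me3 and 9.33 ± 0.76 CPM per kb in total H3. Its log2 ratio of 0.62 (SE 0.15, edgeR adjusted p of 9.67e-04) fell to 0.06 under total reads as library sizes, where it was no longer called. Nkx6-3 also lost its call under that scaling. Without H3 replicate 2 Pax4 was not called (edgeR adjusted p of 0.0569).

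The listed forkhead, T-box, Sox, Gata and bHLH genes were also widely covered. All 25 listed forkhead genes had a start in a region. Of their 24 regions, 21 were called higher, with a median log2 ratio of 1.89. Foxl2 of the ovary was highest at 2.25 (SE 0.11). Of 35 T-box, Sox and Gata genes, 29 had a start in a region and all 30 of their regions were called higher, with a median of 1.65. Sox1, a marker of neural progenitors, had a log2 ratio of 2.48 (SE 0.09) and Sox14 2.46 (SE 0.10), while Sox10 of the neural crest had 0.99 (SE 0.14). Of 39 bHLH lineage factor genes, 32 had a start in a region and 28 of 32 regions were called higher, with a median of 1.41. The neural factor genes Atoh1 (2.26, SE 0.11) and Neurod2 (2.17, SE 0.08) came after Lyl1. The starts of the muscle factor genes Myog and Myf5 lay in no region, and neither did those of Neurod4, Scx, Nhlh1, Hey1 and Hey2. Myf6, another muscle factor gene, had its start in a region that was not called (−0.24, SE 0.36).

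The listed genes for signalling ligands were also widely covered. All 32 listed Wnt ligand and antagonist genes had a start in a region. Of their 34 regions, 29 were called higher, with a median log2 ratio of 1.18. Wnt3a, a ligand of the primitive streak, had 47.9 ± 2.39 CPM per kb in H3K27me3 (SD, n = 5) and 9.46 ± 0.48 CPM per kb in total H3 (SD, n = 2), a log2 ratio of 2.34 (SE 0.12). Wnt7b (2.29, SE 0.11) and Wnt1 (2.09, SE 0.08) were next. Of 45 BMP, TGF-beta, FGF and Hedgehog ligand genes, 36 had a start in a region and 32 of 38 regions were called higher, with a median of 1.35. Shh, Fgf9 (2.25, SE 0.11) and Inhbb (2.16, SE 0.13) were the highest. The starts of Bmp5, Bmp10, Gdf2, Gdf3, Gdf5, Nodal, Fgf1, Fgf4 and Fgf7 lay in no region. Ion channel genes, taken as genes of differentiated neurons and muscle, had 36 of 40 starts in regions and 34 of 40 regions called higher, with a median of 1.35 and Kcnk9 highest at 2.19 (SE 0.13).

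None of the 30 housekeeping genes had a start in a region, beside 20.8% of all protein-coding genes. Of 24 pluripotency genes, 5 did, a share near that of all protein-coding genes. The starts of Pou5f1, Nanog, Sox2, Klf4 and Zfp42 lay in none. Those in regions called higher were Tbx3, Prdm14, Esrrb and Nr5a2. Esrrb, an orphan nuclear receptor of naive ESCs, had 32.5, 27.5, 27.7, 26.7 and 26.4 CPM per kb in H3K27me3, against 9.43 and 11.1 CPM per kb in total H3, a log2 ratio of 1.45 (SE 0.13, edgeR adjusted p of 4.19e-19). Prdm14, a zinc finger factor of naive ESCs and germ cells, had 19.5, 17.5, 20.1, 21 and 17.8 CPM per kb in H3K27me3, against 6.57 and 5.94 CPM per kb in total H3, a log2 ratio of 1.62 (SE 0.17). Both were above total H3 in every library. In a population of cells, a mark in some cells and a weaker mark in all of them cannot be told apart.

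As a check of the labelled cell type, 1 of 10 ESC markers (Esrrb), 6 of 8 feeder fibroblast markers and 4 of 5 extraembryonic endoderm markers had a start in a region, all of these called higher. Of all tested regions with a start, 51.6% were called higher. Beside 20.8% of all protein-coding genes with a start in a region, 1 of 10 does not set the ESC markers apart. ChIP reads do not measure expression, so these counts do not establish the cell type.

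Genes for Polycomb subunits had a start in a region about as often as protein-coding genes as a whole, with 8 of 34 beside 20.8%. Of their 9 regions, 4 were called higher, beside 51.6% of all tested regions with a start. The starts of Ezh2, Eed and Suz12, the core of PRC2, lay in no region. Besides Bcor, the canonical PRC1 subunit gene Bmi1 (2.16, SE 0.09) was among the highest. Bmi1 had 37.9, 42.9, 39.2, 41.0 and 40.2 CPM per kb in H3K27me3, against 9.06 and 8.93 CPM per kb in total H3. Kdm2b, which brings PRC1 to CpG islands, had 6.48 ± 2.29 CPM per kb in H3K27me3 (SD, n = 5) and 10.6 ± 1.12 CPM per kb in total H3 (SD, n = 2). Its log2 ratio of −0.72 (SE 0.31, edgeR adjusted p of 0.151) did not pass the test, but it was called lower at −1.27 under total reads as library sizes.

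Trophoblast, imprinted, germline and cell cycle genes were covered to different degrees. Of 19 trophoblast genes, 12 had a start in a region and 11 of 12 regions were called higher, with a median log2 ratio of 1.75. They included Tfap2a (2.46, SE 0.09) and Cdx2, the trophectoderm factor, which had 40.9 ± 2.25 CPM per kb in H3K27me3 (SD, n = 5) and 8.70 ± 0.19 CPM per kb in total H3 (SD, n = 2). Of 42 imprinted genes, 22 had a start in a region and 17 of 22 regions were called higher, with a median of 0.92. Gnas (1.84, SE 0.12), the cell cycle inhibitor gene Cdkn1c (1.81, SE 0.11) and the growth factor gene Igf2 (1.79, SE 0.10) were the highest. The parental alleles were not told apart, and since the column names carry the tag b6, which the labels do not explain, the counts may be of reads from 1 parental allele. Of 23 germline genes, 9 had a start in a region and 4 of 9 regions were called higher, with a median of 0.62. Beside these, 51.6% of all tested regions with a start were called higher. Of 10 genes for CDK inhibitors and D cyclins, 6 had a start in a region and 7 of 8 regions were called higher, with Ccnd2 highest at 2.03 (SE 0.10). Over all lists, 337 of 516 genes had a start in a region called higher, against 12.8% of protein-coding genes. In the fit that kept only regions with at least 20 counts in both H3 libraries, the median of all regions was −0.06 and list medians were mostly lower. They were 0.67 for Wnt genes, 0.75 for ion channels, 0.79 for BMP, TGF-beta, FGF and Hedgehog ligands, 0.46 for imprinted genes, 0.52 for CDK inhibitors and D cyclins and 0.01 for the 5 germline regions left. The homeobox lists had 1.39 and 1.37, and the 6 Polycomb regions left had 1.14, against 0.75 in all 9. This fit set its scaling on the 6575 regions kept, so its zero is not that of the main fit. The HoxA region, with the same counts, went from 2.38 to 1.78 and the HoxC region from 2.22 to 1.61.

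**Figure D4:**
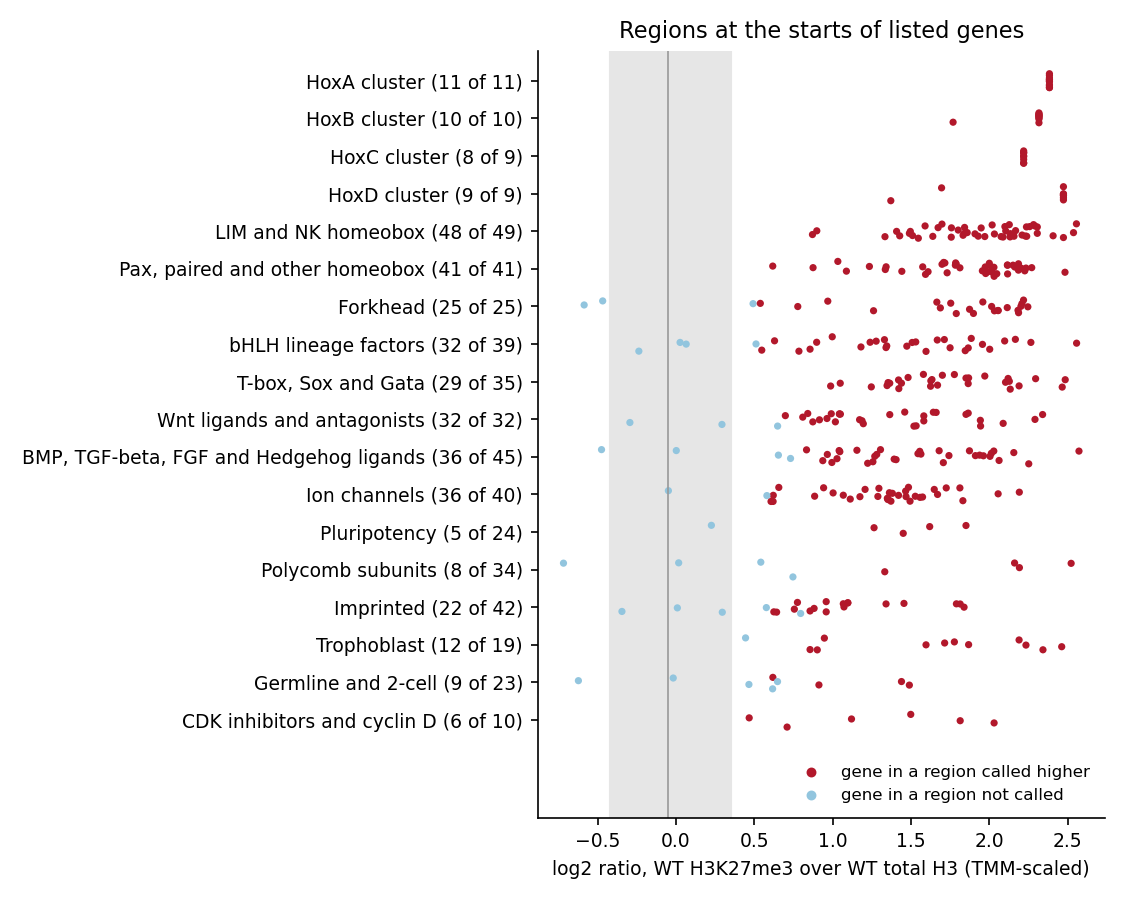
Log2 ratio of WT H3K27me3 over WT total H3 (TMM-scaled) for each listed gene with a start in a tested region, 1 point per gene; brackets give genes with a start in a region of all genes in the list. Red points lie in a region called higher and blue points in one not called; the grey band and line are the quartiles and median (−0.42, 0.35 and −0.05) of all 44550 regions tested. The Hox, homeobox and forkhead genes lie mostly above 1.5, and genes that share a region share its value.

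The longest regions were mostly gene regions. Of the 534 regions of 10 kb or more, 430 (80.5%) held the start of a protein-coding gene. Of them 142 (26.6%) held a start of the 305 listed developmental genes, against 252 of all 57905 regions (0.435%). Such genes were put on the lists with earlier results of these data known, and the shares are a description.

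The lowest ratios belonged to short regions. Of the 10 lowest among regions of at least 1000 bp that were called lower, 9 were regions that the authors did not call in WT, and the longest had 2313 bp. The lowest was intergenic (chr11:117973304-117974336) and had 3.27, 5.55, 3.88, 5.31 and 1.43 CPM per kb in H3K27me3, against 13.3 and 12 CPM per kb in total H3. Its log2 ratio was −1.74 (SE 0.45, edgeR adjusted p of 2.49e-03), and it was no longer called without either total H3 library (adjusted p of 0.0825 and 0.0563). Another at the start of Psd3, a guanine nucleotide exchange factor gene (chr8:67973811-67974848), had 6.88 ± 1.81 CPM per kb in H3K27me3 (SD, n = 5) and 20.1 ± 3.85 CPM per kb in total H3 (SD, n = 2). Its log2 ratio was −1.49 (SE 0.35), and it was no longer called without H3 replicate 1 (edgeR adjusted p of 0.105). Of the 10, 5 were on chromosome 11 and 2 on chromosome 8. Of all 600 regions called lower, 149 were on chromosome 11 and 99 on chromosome 8, beside 2917 and 2059 of the 44550 tested. Every chromosome had regions called lower. Without either H3 library in turn, 222 and 170 regions in all were called lower, against 600 with both.

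Chromosome 6, which carries Rosa26, held 24049 of the 57905 regions (41.5%). These regions were short, with a median of 611 bp against 762 bp elsewhere. The median log2 ratio of those tested was −0.02 on chromosome 6 and −0.08 elsewhere, so the middle region there was not lower in the mark. The median density of its regions, relative to the autosomes without 6, 8 and 11, was 1.02 in H3K27me3 and 0.944 in total H3. Sums over regions, which weigh long regions most, and the count of calls were lower. Chromosome 6 took 18.4%, 22.8%, 22.4%, 24.3% and 23.7% of the H3K27me3 reads in regions in replicates 1 to 5, against 28.9% and 29.1% of the total H3 reads. Every H3K27me3 library was below both total H3 libraries, and replicate 1 stood lowest. The log2 ratio of the shares was −0.38 (two-sided exact permutation p of 0.0476, the smallest of 21 groupings, and 0.0595 adjusted over 20 chromosomes). Without replicate 1 it was −0.31. Of the regions tested, 355 of 17977 on chromosome 6 were called higher (1.97%), against 3732 of 26573 elsewhere (14%).

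A lower ratio on chromosome 6 was also seen within the length classes above 1 kb. Among shared regions of 5 to 10 kb, the median log2 ratio was 0.44 on chromosome 6 (289 regions) and 1.09 on the autosomes other than 6, 8 and 11 (1331 regions). At 10 kb or more it was 1.14 on chromosome 6 (78 regions) and 1.67 on those autosomes (385 regions). Under 1 kb it was 0.03 on chromosome 6 and −0.05 on those autosomes, the opposite order. The highest ratios on chromosome 6 belonged to the HoxA region, Dlx5 of the limb and forebrain (2.29, SE 0.10) and Atoh1. Relative to the autosomes without 6, 8 and 11, the read density over its regions was 0.662 ± 0.087 in H3K27me3 (SD, n = 5), with 0.516 in replicate 1 and between 0.669 and 0.737 in the others, and 0.960 ± 0.005 in total H3 (SD, n = 2).

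Regions were spread unevenly along chromosome 6. The window from 110 to 120 Mb, which holds Rosa26 (113067428 to 113077244 in RefSeq), had 3063 regions that covered 37.0% of it. The window from 10 to 20 Mb had 272 regions that covered 2.10%. In the 257 windows of 10 Mb on the other chromosomes, the median cover was 1.74% and the highest 10.2%, on chromosome 11 from 90 to 100 Mb. The regions of the window with Rosa26 took 3.46% of the H3K27me3 reads in regions, the largest share of any window of chromosome 6. Per kb of called region the mark was not high there. The window had 8.75, 10.8, 11.2, 11.9 and 11.5 CPM per kb in H3K27me3, against 9.86 and 9.91 CPM per kb in total H3. Its median log2 ratio of 0.03 was near that of all regions, of which 17977 of the 44550 tested were on chromosome 6. In the window from 50 to 60 Mb, which holds HoxA, the level was 13.2 ± 0.86 CPM per kb in H3K27me3 (SD, n = 5) and 9.66 ± 0.06 CPM per kb in total H3 (SD, n = 2).

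Chromosome X had the highest log2 ratio of read shares among the 20 chromosomes. The 368 tested of its 504 regions had a median log2 ratio of 1.01, and 141 were called higher (38.3%). They took 0.939%, 0.894%, 0.908%, 0.899% and 0.893% of the H3K27me3 reads, against 0.552% and 0.535% of the total H3 reads, a log2 ratio of 0.74 (two-sided exact permutation p of 0.0476, adjusted 0.0595). No library of one antibody overlapped those of the other. Relative to the autosomes without 6, 8 and 11, the density was 0.770 ± 0.010 in H3K27me3 (SD, n = 5) and 0.517 ± 0.010 in total H3 (SD, n = 2). The cells are labelled male, with a single X chromosome. The high ratio thus stood beside a total H3 density near 0.5 of the autosomal one, and its part in the ratio was not tested. In shared regions of 1 to 5 kb the median was 1.11 on X (191 regions) and 0.19 on the autosomes other than 6, 8 and 11 (8452 regions). Among the listed genes, X-linked Esx1 of the trophoblast (2.34, SE 0.27) and Taf7l, a testis paralog of a TFIID subunit (1.49, SE 0.26), were among the highest of their lists.

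Chromosomes 8 and 11 had low median ratios. Of all regions tested, 9.17% were called higher and 1.35% lower. On the autosomes other than 6, 8 and 11 these shares were 14.6% and 1.38%. On chromosome 8 the median log2 ratio was −0.33, with 199 regions called higher (9.66%) and 99 lower (4.81%) of 2059 tested. The total H3 density of its regions relative to the other autosomes was the highest of all chromosomes, at 1.39 ± 0.001 (SD, n = 2), and that of H3K27me3 was 1.19 ± 0.004 (SD, n = 5), also the highest. On chromosome 11 the median was −0.32, with 284 regions called higher (9.74%) and 149 lower (5.11%) of 2917 tested. Its relative density was 0.926 ± 0.034 in H3K27me3 and 1.05 ± 0.01 in total H3. In shared regions, the medians by length class, shortest first, were −0.05, 0.19, 1.09 and 1.67 on the autosomes other than 6, 8 and 11. They were −0.24, −0.09, 0.87 and 1.46 on chromosome 8, and −0.07, 0.05, 0.82 and 1.43 on chromosome 11. Shares of reads did not separate the antibodies on either: the log2 ratio of the shares was −0.06 on chromosome 8 and −0.02 on chromosome 11 (exact permutation, adjusted p of 0.201 and 0.667). With only regions off chromosome 6 in the denominator these were −0.19 and −0.15 (exact permutation, adjusted p of 0.0603 for both). The highest regions of chromosome 11 were Ppp1r9b, an intergenic region of 22823 bp (chr11:119041179-119064001, 2.44, SE 0.09) and Hic1, a tumour suppressor gene (2.38, SE 0.11). Of 20 chromosomes, none had a share that passed the test after adjustment, since the smallest adjusted p was 0.0595, while 16 were at the smallest unadjusted p of 0.0476.

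**Figure D5:**
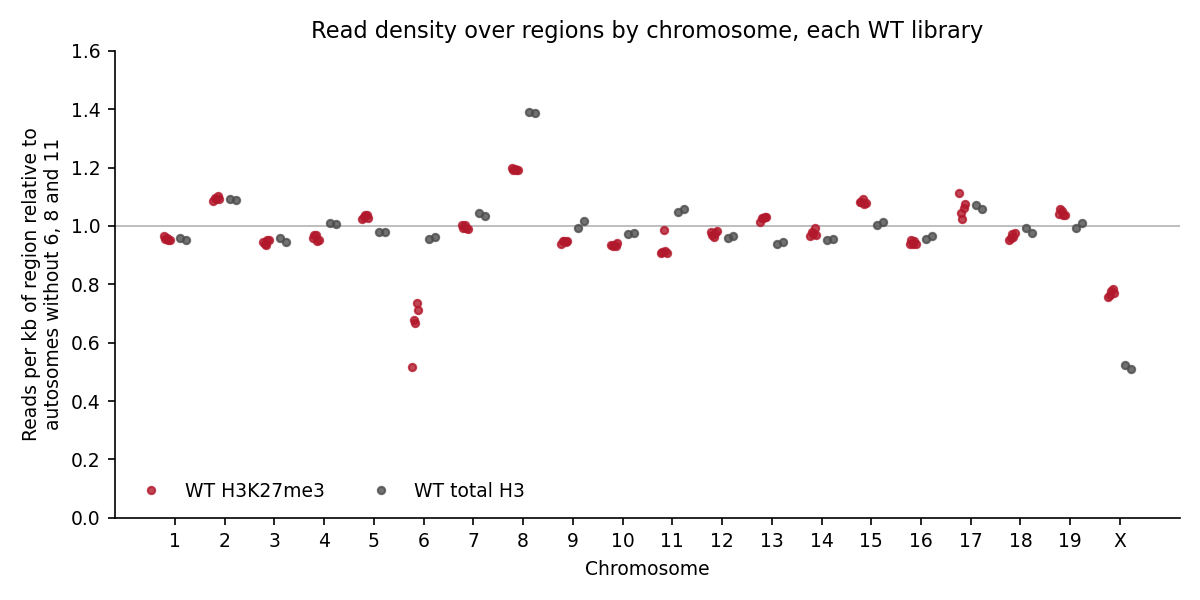
Reads per kb of region on each chromosome relative to all autosomes other than 6, 8 and 11 (line at 1), for 5 WT H3K27me3 libraries (red) and 2 WT total H3 libraries (grey); each point is 1 library. The summed density on chromosome 6 is low in H3K27me3 alone, with replicate 1 lowest at 0.516, while the median density of its regions, not plotted, is 1.02. Chromosome X is low in both and lowest in total H3, and chromosome 8 is high in both.

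The libraries agreed better over long regions. Across the 2489 tested regions of 5 kb or more, the log2 densities of H3K27me3 libraries had Pearson correlations between 0.919 and 0.963 for the 10 pairs, and those of the total H3 pair 0.647. Between an H3K27me3 and a total H3 library they were between 0.150 and 0.197. Over all regions tested these correlations were lower, at 0.457 to 0.582 for the H3K27me3 pairs and 0.157 for the total H3 pair. They run across regions, which are not independent replicates, and share region length and depth.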

How the data were processed

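Raw read counts per region, with no normalization, were deposited by the authors for each library. Per the submitters' processing notes, Bowtie2, MACS2, bedtools, Subread and featureCounts were used with genome build mm10, and per the file headers the promoter table came from featureCounts 2.0.3. The sources do not say how the regions were called or what the tag b6 in the column names stands for, so the counts may be of reads from 1 parental allele. The WT H3K27me3 and WT total H3 columns were joined by region, and 6 DKO libraries were not used here. Gene starts were taken 2000 bp inside the upstream edge of each of 77489 deposited promoter rows of 3001 bp, and 38984 of 55232 gene symbols matched RefSeq (GRCm38.p6). No gene coordinates beyond these were used to place exons or introns.

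The test was edgeR 4.0.16 run in R 4.3.3 (TMM, filterByExpr with a minimum count of 10 and a minimum total of 15, quasi-likelihood F test, two-sided, Benjamini-Hochberg over all regions tested). CPM per kb is the TMM-scaled CPM divided by region length, and the SE of a log2 ratio is its size over the root of F. Libraries were compared by share of reads with exact permutation over 21 groupings. Depth limited short regions: total H3 had a median of 6 counts per region in both libraries, and the SD and SE cover counting and library error only. In a simulation, 200 of the 44550 regions were changed, and 39078 regions passed the filter on the simulated counts. Changed regions that did not pass counted as missed. The test recovered 2.99% of the 1.5-fold, 23.9% of the 2-fold and 37.9% of the 3-fold changes, and 4.44% of its calls were false. The data gave many more calls than 200, which moves the adjusted threshold, so these rates need not hold for them. Named regions are the 15 highest ratios (at least 1000 bp, 10 H3 counts, all libraries apart), the 10 lowest, the 10 longest, the 3 highest on chromosomes 6 and 11, and up to 3 highest and 2 lowest per list. Gene absences from regions were named after their values were seen. Members and lists were chosen with earlier results of these data known. Alternatives were other scalings, filters, DESeq2 1.42.0, subsets of libraries and a replicate block. Tables and figures used Python 3.11.15, numpy 2.4.6, pandas 2.3.3 and matplotlib 3.10.9. Some results are not reported here.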

Additional observations from a re-analysis of the deposited data

Results flagged for a closer look

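In 12 of 129 sets of 5 WT H3K27me3 libraries, 1 library stood far from the other 4 by Dixon's test at the 95% level, which chance gives in about 1 of 20 sets. In 11 of them it was replicate 1, whose share of reads on chromosome 6 was also the lowest of the 5 (18.4%, against 22.4% to 24.3% in the others). Its shares were the highest on chromosome 1 (4.49%), chromosome 2 (7.80%), chromosome 3 (3.55%), chromosome 5 (5.70%), chromosome 8 (6.49%), chromosome 10 (3.35%), chromosome 12 (3.27%) and chromosome 17 (3.62%). Shares of 1 library sum to 100%, so these sets are not independent of each other. Replicate 1 also had the highest share in regions of 5 to 10 kb (24.7%, median 23.5%) and in regions with a gene start (54.7%, median 52.6%). At Esrrb it had 32.5 CPM per kb, against 26.4 to 27.7 in the others. Without replicate 1, the log2 ratio of the H3K27me3 to the total H3 share was 0.49 for regions of 5 to 10 kb and 0.65 for regions with a gene start, against 0.50 and 0.66 with it, and 4133 regions were called higher and 840 lower, against 4087 and 600 with it. In the HoxD region from Evx2 to Hoxd8, replicate 3 was the lowest at 50.2 CPM per kb, against a median of 52.7.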

How the results depend on the processing

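Scaling moved the calls most. Total reads as library sizes gave 2189 regions higher and 7673 lower, reads in regions not called in WT gave 10785 and 42, and a minimum of 20 counts in both H3 libraries gave 1913 and 1708 of 6575 tested (52.8% of calls higher), against 4087 and 600. DESeq2 called 107 lower and 3967 higher, and replicates 4 and 5 alone gave 982 lower, a set of libraries chosen after seeing the data. The causes were not tested. Leaving out 1 library at a time gave 3307 to 4168 higher and 170 to 840 lower, with 222 lower without H3 replicate 1 and 170 without H3 replicate 2. With the replicate number as a block, 3972 were higher and 439 lower. The labels do not pair the antibodies, and the block used the replicate numbers, of which only 1 and 2 are shared. Deviations of same-numbered libraries correlated at 0.0099 and 0.011. Library names could also be read to pair H3K27me3 replicates 4 and 5 with H3 replicates 1 and 2. Deviations of these correlated at 0.00041 and 0.0019, and this pairing was not used as a block. Under total reads 299 of 516 listed genes had a start in a region called higher, against 337.

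Share tests lost significance in every subset of libraries by construction, since fewer groupings leave no p under 0.05, and no such direction changed. The log2 ratios for regions under 1 kb, 1 to 5 kb, 5 to 10 kb and 10 kb or more were −0.80, −0.29, 0.51 and 1.11 in replicates 1, 4 and 5, −0.74, −0.29, 0.49 and 1.11 in replicates 4 and 5, and −0.82, −0.29, 0.51 and 1.13 in replicates 1 to 3. For shared, WT-specific and DKO-specific regions and gene starts they were 0.18, −0.54, −1.17 and 0.66 in replicates 1, 4 and 5, 0.17, −0.42, −1.16 and 0.64 in replicates 4 and 5, and 0.18, −0.60, −1.17 and 0.67 in replicates 1 to 3. Leaving out 1 library gave −0.81 to −0.76, −0.29 to −0.29, 0.49 to 0.51 and 1.12 to 1.13 by length, 0.17 to 0.18, −0.56 to −0.47 and −1.18 to −1.16 by list, and 0.65 to 0.66 for gene starts. For chromosomes it gave −0.42 to −0.31 on 6, −0.08 to −0.05 on 8, −0.04 to −0.01 on 11 and 0.72 to 0.76 on X. Reversed were, over regions off chromosome 6 alone, chromosomes 4 (−0.038), 7 (−0.028), 9 (−0.055) and 10 (−0.028), since chromosome 6 leaves their denominator, and chromosome 11 in replicates 1 to 3 alone (0.010). Of 1454 alternative values for 82 named regions, 1415 had the direction and side of the threshold reported, 37 lost the call, 2 gained one and 0 turned direction.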
